A study of Homo sapiens with 16 samples.

Results

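In 2 triple-negative breast cancer (TNBC) cell lines, 897 chromatin regions carried an H3K27ac peak in every sample of control cells that received TWEAK and in no other sample. They were chosen on exactly these values. Overlapping peaks (1 bp or more) of the 16 deposited lists were joined into 64545 merged regions. Those seen in 2 or more lists, 55219 in all, form the consensus regions used here. A region was taken where all 4 control TWEAK lists had a peak, while none of the 4 untreated control lists and none of the 8 Fn14 knockout (KO) lists had one. This rule called 1.62% of the consensus regions. The presence of a peak in the 16 lists is therefore the definition of these regions and is given without a test.

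The lists came from ChIP-seq for H3K27ac, the acetyl mark on histone H3, where a peak is a stretch with more reads in the precipitate than in the input. MDA-MB-231 and Hs578T, both established human TNBC cell lines of mesenchymal type, were each used as control and as Fn14 KO cells, and each was either left untreated or given TWEAK. The 8 groups were thus MDA-MB-231 control untreated, MDA-MB-231 control TWEAK, MDA-MB-231 Fn14 KO untreated, MDA-MB-231 Fn14 KO TWEAK and the same 4 for Hs578T, with 2 replicates each. All cells were starved for 8 h in optimem, and TWEAK was given at 10 ng/ml for 48 h with a fresh dose after 24 h. For the KO, the TLCV2 CRISPR vector was used with 2 different guides. Which guide each KO list carries and whether the cells were 1 clone is not given in the sources used here. A peak at the start of TNFRSF12A, the gene of Fn14, was present in 16 of 16 lists, which checks neither the cut nor the protein.

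TWEAK is a cytokine of the TNF superfamily, and Fn14 is its receptor. Ligand binding recruits TRAF adaptors to the receptor and can start both NF-κB arms, the canonical arm through p50 and RelA and the non-canonical arm through processing of p100 to p52, and also MAP kinases that activate AP-1. In immunoblots of cell lines that included both used here, the study reported activation of the non-canonical arm and no effect on the canonical one. NF-κB dimers bind κB sites, short elements with a G-rich and a C-rich end, while AP-1 dimers of FOS and JUN proteins bind TGANTCA. H3K27ac marks active promoters and enhancers, and signal-induced enhancers gain it where such factors recruit acetyltransferases.

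The sequences of 7 regions are shown because each holds both elements in the 600 bp at its centre, with the nearest pair less than 100 bp apart centre to centre. Candidates were the 10 strongest regions and the regions closest to genes of the lists described below, and the 100 bp limit was set after the distances were seen. The region closest to TNFAIP3 was also a candidate that held both elements. It is not shown, and the distance of its pair is not given here. CD74 entered through RPS14, a gene of the comparison list. Each line gives the stretch around the closest AP-1 and κB pair on hg38, with every AP-1 and κB match in capitals.
Region nearest TBC1D4, chr13:75079323-75079416, plus strand: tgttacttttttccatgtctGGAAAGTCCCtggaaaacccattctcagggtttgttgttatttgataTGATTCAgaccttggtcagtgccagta
Region nearest CD74, chr5:150394318-150394386, plus strand: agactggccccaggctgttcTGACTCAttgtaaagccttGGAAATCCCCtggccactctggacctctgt
Region nearest MMP9, chr20:46008284-46008397, plus strand: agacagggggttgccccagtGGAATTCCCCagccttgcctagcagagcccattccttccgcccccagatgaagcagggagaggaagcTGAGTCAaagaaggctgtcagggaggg
Region nearest CXCL11, chr4:76036117-76036177, plus strand: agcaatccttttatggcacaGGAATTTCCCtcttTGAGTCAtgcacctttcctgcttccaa
Region nearest IKBKE, chr1:206481340-206481406, plus strand: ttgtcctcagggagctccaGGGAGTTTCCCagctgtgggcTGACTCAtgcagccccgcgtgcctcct
Region nearest CXCL8, chr4:73722099-73722241, plus strand: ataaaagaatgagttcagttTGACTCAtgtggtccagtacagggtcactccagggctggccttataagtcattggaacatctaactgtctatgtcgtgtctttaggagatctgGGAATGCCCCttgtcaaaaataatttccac
Region nearest ITGAV, chr2:186555548-186555607, plus strand: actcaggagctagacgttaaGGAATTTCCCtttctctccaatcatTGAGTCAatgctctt

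In the stretch of the region nearest CXCL11, the gene of an interferon- and NF-κB-responsive chemokine, the pair lay 12 bp apart from centre to centre, the shortest distance of the 7. The distance was 18 bp near IKBKE, which encodes an IκB kinase-related protein, 20 bp near CD74, 23 bp near ITGAV, 45 bp near TBC1D4, 65 bp near MMP9 and 94 bp near CXCL8. In the IKBKE stretch a pair of overlapping κB matches runs together into 1 capital run. The MMP9 stretch lies just upstream of the gene of gelatinase B, and the stretch near CXCL8 lies 18.5 kb upstream of the start of the gene of interleukin 8. The CD74 stretch lies within TCOF1, where an annotated exon overlaps it. The other 6 stretches share no base with an exon of a protein-coding gene.

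A κB element was more frequent in these regions than in every other set of regions that was scanned, while the share with AP-1 was higher than in some sets and lower than in others. Regions with a peak in every list held AP-1 in 33.7% and κB in 16.8%, and regions gained in both lines with a KO peak held them in 50.9% and 32.3%. Within 600 bp, 396 of the 897 regions (44.1%, exact binomial 95% interval over regions 40.9 to 47.5) held a κB match on either strand, against 255 of the 1971 other regions with a peak in exactly 4 lists (12.9%) and 4976 of the 40507 other consensus regions over 2 kb from a start (12.3%). An AP-1 match was held by 400 of the 897 (44.6%, interval 41.3 to 47.9), against 45.1% and 48.1% of the same other sets. The interval covers the number of regions only, which are not replicates of a condition, and no test was run over regions. Both elements together occurred in 175 regions (19.5%), against 4.92% of the other regions in exactly 4 lists and 15.3% of regions gained in both lines with a KO peak. Neither element was held by 276 regions (30.8%), against 46.9% and 32.1% of these sets. The 897 regions were slightly poorer in GC, with a median of 42.5% against 44.7% in the other regions with a peak in 4 lists.

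**Figure D1:**
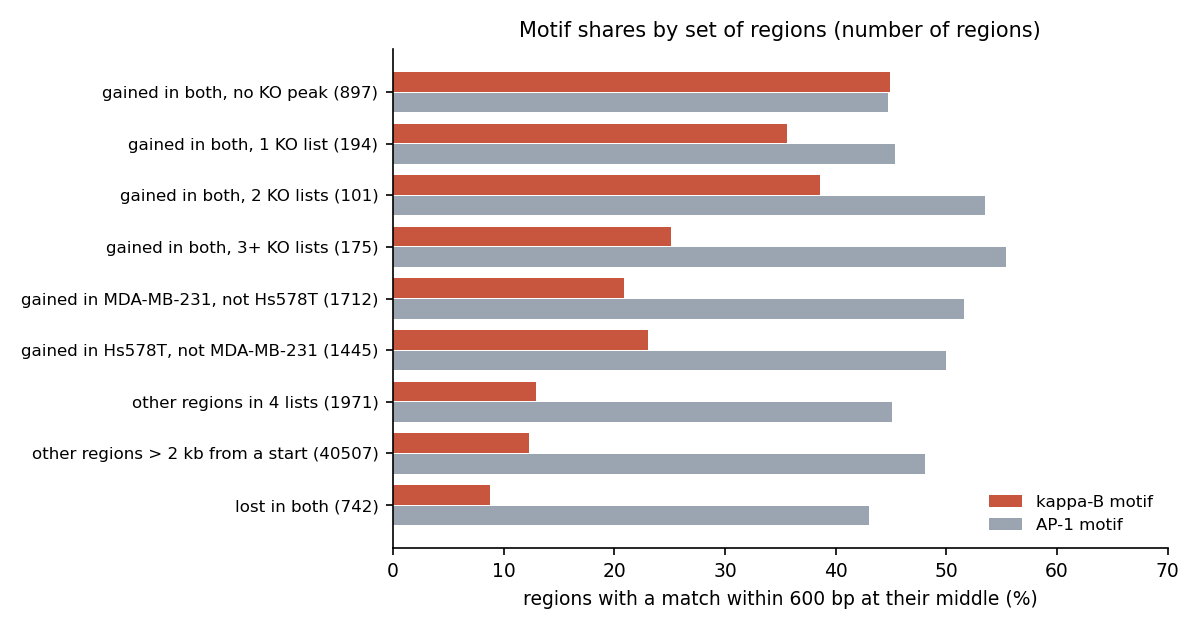
Share of regions, in percent, with a κB match (red) or an AP-1 match (grey) in the 600 bp around the middle of the region, for 9 sets of regions, with the number of regions of each set in parentheses. The κB share is 44.9% in regions gained in both lines without a KO peak and 8.76% in regions lost in both lines, while the AP-1 share lies between 43.0% and 55.4% in all 9 sets.

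Sets that met the definition less strictly held κB less often. By the middle of the region, κB matches were found in 44.9% of the 897 regions, in 35.6% of the 194 regions that were gained in both control lines but had a peak in 1 KO list, in 38.6% of the 101 with peaks in 2 KO lists and in 25.1% of the 175 with peaks in 3 or more KO lists. Regions gained in only 1 line, regardless of KO lists, held it in 20.9% (1712 regions of MDA-MB-231) and 23% (1445 regions of Hs578T). Regions lost with TWEAK in both lines held it in 65 of 742 (8.76%), the lowest share of the sets. The AP-1 shares of the first 4 of these sets were 44.7%, 45.4%, 53.5% and 55.4%. Gain in both control lines with any or no KO peak called 2.48% of the consensus regions (1367), and loss in both lines called 1.34%.

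Regions of each class of position held κB about equally often. The κB share was 43.5% in the 46 regions near a start, 45.9% in the 425 within gene bodies and 44.1% in the 426 between genes. Matches were concentrated at the middle: 13.5 and 16.1 κB matches per 100 regions fell in the 100 bp on the left and the right of the middle, against 2.94 and 3.40 in the other regions with a peak in 4 lists and 2.70 and 0.943 in regions lost in both lines. Regions gained in both lines with a KO peak had κB matches concentrated at the middle too, with 12.3 and 8.09 per 100. AP-1 matches were concentrated there as well, with 15.7 and 11.5 per 100 of the 897 regions, but so they were in the other regions with a peak in 4 lists, with 13.4 and 13.7.

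**Figure D2:**
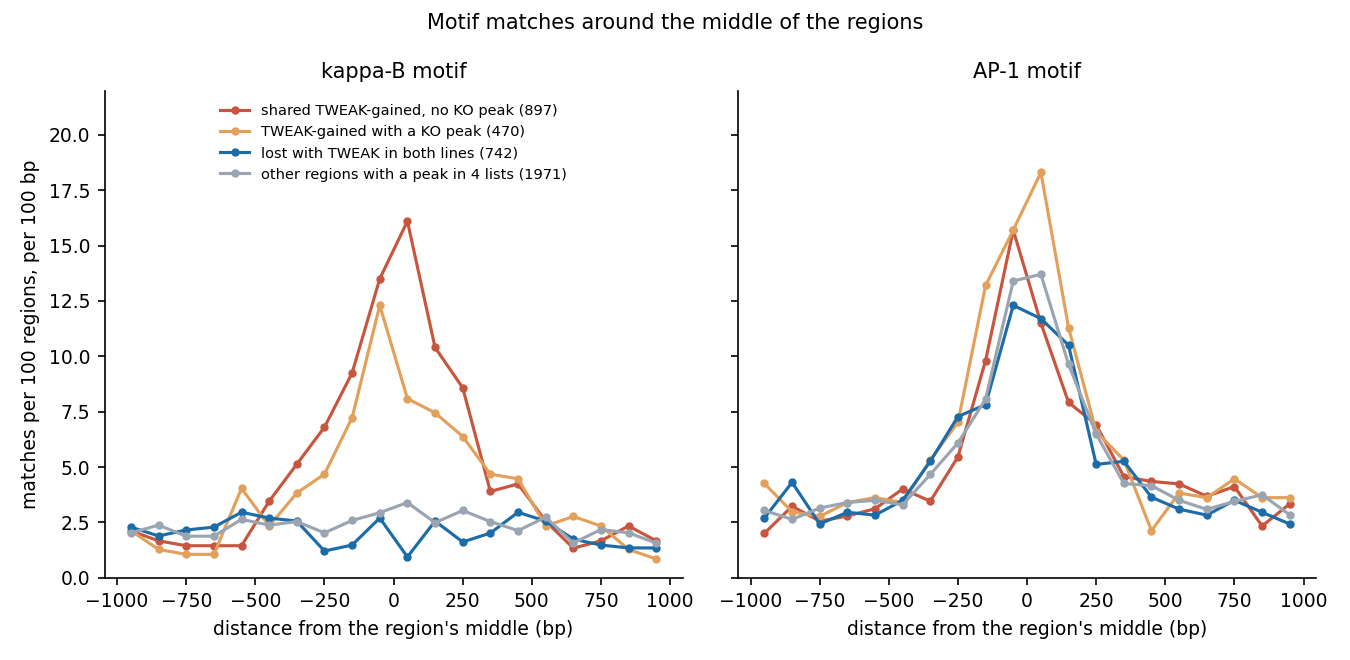
Matches per 100 regions in bins of 100 bp (y) by distance in bp from the middle of the region (x), for κB on the left and AP-1 on the right, in 4 sets of regions. The κB curve of the 897 regions (red) reaches 16.1 beside the middle and that of the lost regions (blue) stays low, whereas the AP-1 curves of all 4 sets rise at the middle. The κB curve of regions gained in both lines with a KO peak also rises there, up to 12.3.

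The most frequent κB decamers were shared by many regions. Read in the direction with the run of G first, GGGAATTTCC and GGGGATTTCC were each found in 39 of the 897 regions, GGGACTTTCC in 38, and GGGAAATTCC and GGGGAATTCC each in 35. Per 1000 regions this is 43.5, 43.5, 42.4, 39.0 and 39.0, against 2.03, 2.54, 2.03, 2.54 and 1.52 in the other regions with a peak in exactly 4 lists. Among the 742 lost regions, 4 of these 5 decamers were found in none and GGGAAATTCC in 1. The number of different decamers was 66 in the 897 regions and 94 in the 1971 others. A pair of regions near FRMD1 and RASA3 held 16 and 10 matches each, and the decamer counts above count a region once.

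The largest number of AP-1 matches in the central 600 bp was 4, in a region 15.3 kb upstream of a start of PLCL2 with a fold of 3.89 and 4.60 in MDA-MB-231 and of 3.04 and 2.77 in Hs578T and no κB match. The next, with 3 matches each, were nearest PTPRM, FAM166B, TNS3 and HTRA4, with mean folds of 13, 5.40, 4.24 and 3.84, and of these 4 only the TNS3 region held κB. Further regions with 3 matches were not named.

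Of the other 9 elements scanned, none differed by as many percentage points as κB between the 897 regions and the other regions with a peak in 4 lists. Sites of RUNX factors (TGTGGT) were found in 37.2% of the 897 regions, 39.7% of the others with a peak in 4 lists and 48.1% of the lost regions. Sites of TEAD factors (GGAATG) were found in 36.2%, 34.8% and 36.7%. FOX sites (TGTTTAC) were found in 13.2%, 12.6% and 9.84%, SP/KLF sites (GGGCGG) in 11.7%, 17.2% and 14.3%, C/EBP sites (TTGNGCAA) in 7.69%, 8.47% and 9.70%, ETS sites (CCGGAA) in 5.91%, 7.76% and 5.66%, and STAT sites (TTCCNGGAA) in 3.34%, 1.78% and 3.10%. The MAF-type element, TGC followed by TGANTCA and thus always counted as AP-1 too, was found in 19 of the 897 regions (2.12%) against 3.20% and 1.75%. The CRE (TGACGTCA) was found in 2 of the 897 regions. A κB match can overlap a TEAD match.

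The regions were weak to moderate peaks in the lists that called them. Fold enrichment over local background, as the authors' peak caller gave it, had a median over the 897 regions of 3.88 and 3.97 in the MDA-MB-231 control TWEAK replicates 1 and 2 and of 3.83 and 3.79 in those of Hs578T. These medians sat between the 26.5th and the 28.7th percentile of all peaks of their list, whose medians were 5.89, 5.88, 5.47 and 5.45. In the 4 lists, between 10.9% and 14.3% of the regions lay above the list's own median. The −log10 q-value had medians of 4.16, 4.57, 3.96 and 4.03, and its lowest value over the 4 lists was under 2 in 254 regions (28.3%) and at least 5 in 186. These values come from the lists that chose the regions and are given as a description.

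**Figure D3:**
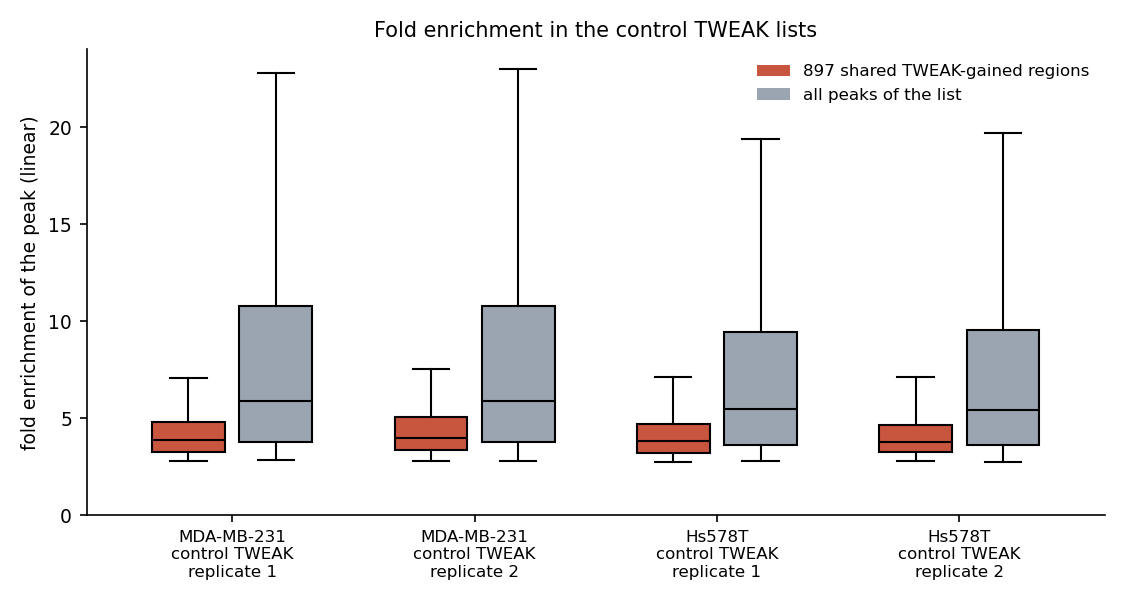
Fold enrichment on a linear scale (y) in the 4 control TWEAK lists (x), for the 897 regions (red) and for all peaks of the same list (grey). Boxes span the quartiles with the median as a line, and whiskers reach from the 5th to the 95th percentile. The medians of the regions lie between 3.79 and 3.97, below the list medians of 5.45 to 5.89.

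Regions with a κB match were somewhat stronger than those without. The mean fold over the 4 lists had a median of 4.09 in the 396 regions with κB and of 3.71 in the 501 without, and the order was the same in each list (4.08 against 3.71, 4.21 against 3.78, 4.01 against 3.67 and 4.05 against 3.67). For AP-1 the order was the reverse, at 3.83 with and 3.99 without. In the 90 strongest regions, with a mean fold of at least 5.93, the κB share was 60.0% and the AP-1 share 38.9%, whereas in the 90 weakest, at most 3.12, these were 28.9% and 42.2%. No test was made of these differences, since the fold was used by the rule.

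Replicates ranked the regions alike, and the lines did so less. Pearson's r of log2 fold over the 897 regions was 0.869 between the MDA-MB-231 replicates and 0.849 between those of Hs578T, and between 0.631 and 0.654 for the 4 pairs across lines. These correlations are over regions, which share their libraries, and have no p-value. The difference between the lines in mean log2 fold, MDA-MB-231 minus Hs578T, had a median of 0.04 and an SD of 0.32 over regions. Both MDA-MB-231 values were above both Hs578T values in 300 regions (33.4%), below them in 218 (24.3%), and overlapped in 379 (42.3%). With 2 lists a line, an exact permutation test of a single region could not pass 0.05, and no other test of single regions was run. The lines differed more than 2-fold in 6 regions. Of these 6, only the region 107 kb upstream of FUT8, which encodes the core fucosyltransferase, was stronger in Hs578T, with a fold of 12 and 10.6 against 5.12 and 5.77 in MDA-MB-231. The region nearest YPEL2 had 11.5 and 12.2 in MDA-MB-231 and 5.02 and 5.33 in Hs578T, and those nearest HSFX3, PIWIL4, LRIG1 and XPA were stronger in MDA-MB-231 as well. These 6 were named after their values were seen.

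The regions spanned 332 to 3637 bp with a median of 1108 bp, and 59 were at least 2000 bp wide. The stretch shared by the peaks of all 4 control TWEAK lists had a median of 568 bp, and its median share of the region was 49.8%. In 17 regions no base was shared by all 4. The widest region, near SPCS3, measured 3637 bp, followed by those nearest TFPI (3500 bp), EXTL2 (3244 bp), PPFIA2 (3116 bp) and FUT8 (3061 bp). The 1971 other regions with a peak in exactly 4 lists were narrower, with a median of 858 bp, and the regions lost in both lines wider, with 1306 bp.

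The strongest regions lay near genes of varied function. The top region, 3.23 kb downstream of a start of USP31, a deubiquitinase gene, had a fold of 15.7 and 14.3 in the MDA-MB-231 control TWEAK replicates and of 11.9 and 12 in those of Hs578T. A region within PTPRM, which encodes a receptor tyrosine phosphatase of cell contacts, had 13.3, 13.8, 12.2 and 12.7. The region in FNBP1, encoding a membrane-curving protein, had 13.6 and 13.6 in MDA-MB-231 and 7.74 and 10.3 in Hs578T. All 4 lists were closely alike in the region 6.55 kb upstream of a start of TFPI, the gene of tissue factor pathway inhibitor, with 11.3, 11.3, 10.3 and 11 and 3 κB matches. The MDA-MB-231 values were thus above the Hs578T values in each of these 4 regions. The remaining regions of the 10 strongest were nearest LRRC3C (mean fold 9.90), ENPP6 (9.89), RAP1A (9.68), CDC14A (9.49), TBC1D4 (9.46) and NTS (9.15). A κB match was present in 7 of these 10, and an AP-1 match in 3.

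Regions chosen on some of the lists were looked up in lists that had no part in the choice. This asks whether the pattern of the chosen regions also holds in the lists not used to choose them. The looked-up lists were not fully apart, since the borders of the regions came from the merged peaks of all lists. The 1749 regions with a peak in both control TWEAK lists and in none of the other 6 lists of MDA-MB-231 (3.17% of consensus regions) were found in 76.5% and 78.3% by the Hs578T control TWEAK replicates 1 and 2. The untreated Hs578T control lists had a peak in 14.3% and 9.03% of them, the untreated Fn14 KO lists in 7.38% and 7.43%, and the TWEAK-treated Fn14 KO lists in 7.49% and 8.40%. The control TWEAK lists therefore did not overlap the other 6 lists, and the difference of means was 68.4 percentage points (exact permutation test, two-sided, p = 0.0357, the smallest that 28 arrangements allow).

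In the other direction, 2195 regions chosen in Hs578T (3.98% of consensus regions) were found in 66.7% and 71.9% by the MDA-MB-231 control TWEAK lists. The untreated control lists had 2.92% and 7.65%, the untreated Fn14 KO lists 18% and 8.79%, and the TWEAK-treated Fn14 KO lists 9.84% and 10.7%. The highest of the other 6 lists was MDA-MB-231 Fn14 KO untreated replicate 1, which also had the most peaks of the MDA-MB-231 lists (46295, against 39544 to 44585 in the other 7). The difference was 59.7 percentage points (exact permutation test, two-sided, p = 0.0357, again the smallest possible). All 897 regions are by definition among the chosen ones, and made up 51.3% of the 1749 and 40.9% of the 2195. By the rule, these 897 have peaks in the looked-up control TWEAK lists and in no other looked-up list. The comparisons therefore describe the chosen sets and are no separate test of the 897 regions.

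Peak strength differed between genotypes in MDA-MB-231. The median −log10 q-value over all peaks of a list was 5.79 to 7.69 in its 4 Fn14 KO lists and 9.44 to 10.8 in its 4 control lists, whereas in Hs578T it was 8.24 to 8.61 and 7.86 to 9.04. The untreated control lists of MDA-MB-231, with 9.44 and 9.95, had peaks in fewer of the chosen regions (2.92% and 7.65%) than each KO list of that line. The part of peak strength in the KO lists was not tested.

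Replicates were treated in the same way. The rule applied to the 8 lists with replicate number 1 chose 1311 regions (2.37% of consensus regions), of which 87.6% and 90.1% had a peak in replicate 2 of the MDA-MB-231 and Hs578T control TWEAK lists and 2.29% to 4.96% in the other 6 lists of replicate 2. Applied to replicate 2 it chose 1709 regions (3.09%), of which 77.8% and 84.6% had a peak in replicate 1 of the control TWEAK lists and 1.87% to 12.6% in the others. The differences were 85.3 and 75.2 percentage points, each with p = 0.0625 in an exact permutation test within lines, two-sided, which is the smallest that its 16 arrangements allow and so could not pass 0.05. The 897 regions made up 68.4% of the 1311 and 52.5% of the 1709. They follow the pattern by the rule here too, so these comparisons are likewise no separate test of the 897 regions. Over the 4 tests the Benjamini-Hochberg adjusted p was 0.0625 for each of these exact permutation tests. The labels do not say whether replicates were separate cultures, so the p-values measure the spread between these lists only.

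**Figure D4:**
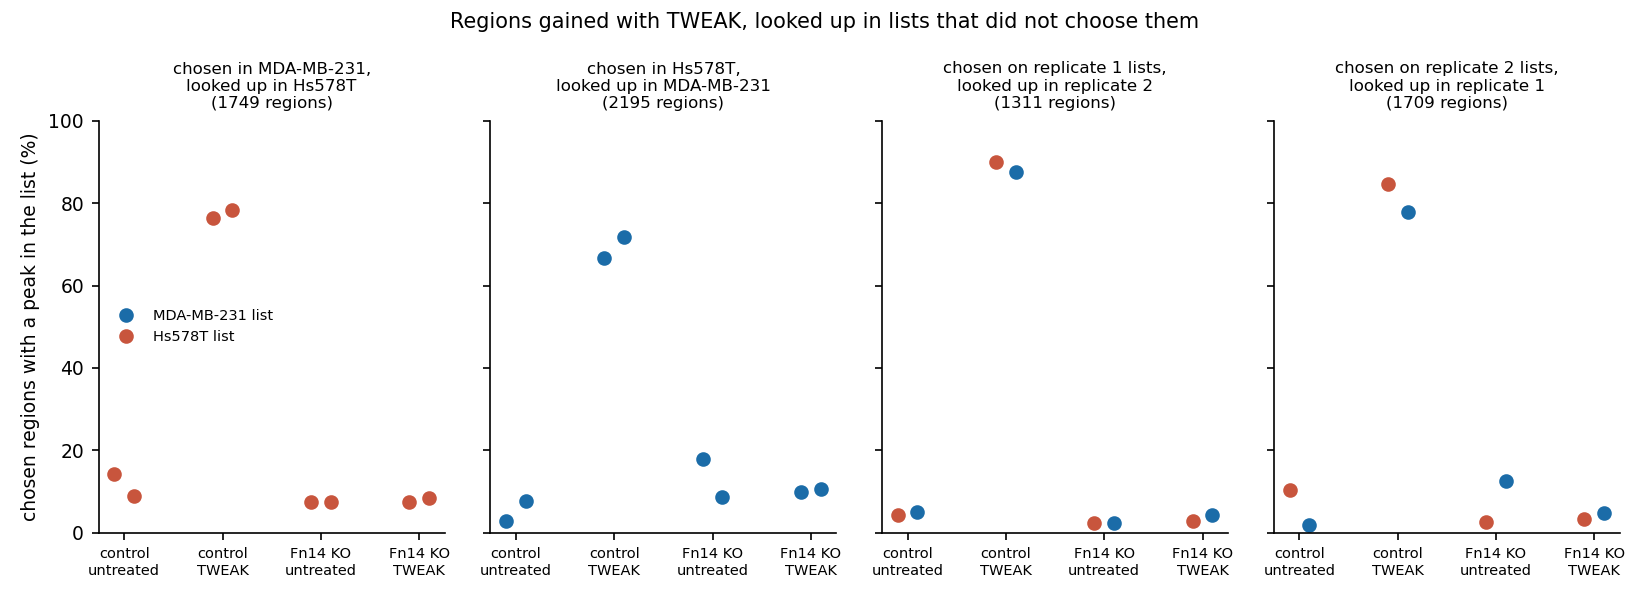
Percent of the chosen regions (y) with a peak in each list that had no part in the choice (points, coloured by line), by genotype and treatment (x), for the 4 ways of choosing. The control TWEAK lists lie between 66.7% and 90.1% and all other lists at or below 18%.

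Just outside the rule, 785 regions missed it in 1 list. A control TWEAK peak was missing in 461, of which 187 lacked MDA-MB-231 control TWEAK replicate 1, and 324 had 1 peak too many, of which 130 were in an untreated control list and 194 in a KO list. Of the latter 194, 85 were in MDA-MB-231 Fn14 KO untreated replicate 1. The extra peak was weak, with a median −log10 q-value of 1.83 in untreated control lists and 1.57 in KO lists. The weakest control TWEAK peak of the regions had a median of 2.77 inside the rule, and 2.99 in the regions with 1 peak too many. Where 1 control TWEAK list lacked a peak, the weakest of the others had 1.73.

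Most of the regions lay away from promoters. Distances are from the middle of a region to the closest start of a protein-coding transcript of GENCODE 44. Only 46 (5.13%) came within 2 kb of such a start with their edge, 425 (47.4%) lay in gene bodies and 426 (47.5%) between genes, and 772 (86.1%) were away from starts and touched no exon. The median distance was 37.3 kb (quartiles 11 and 101 kb), with 213 within 10 kb, 521 within 50 kb and 670 (74.7%) within 100 kb, and 48.0% were upstream of the gene. With the starts of all gene types the median distance was 10.5 kb and the share near a start 16.3%. The share near a start was 5.96% in the 470 regions gained in both lines that had a KO peak, 9.97% in the lost regions and 9.84% in the others with a peak in exactly 4 lists. All other consensus regions were near a start in 25.4%, in gene bodies in 39.3% and between genes in 35.2%, with a median distance of 19.3 kb. Those of them over 2 kb from a start had a median distance of 35.8 kb. Of these distal regions 75.5% lay within 100 kb and 85.6% touched no exon. The median distance, the share within 100 kb and the share without an exon were thus close to those of distal consensus regions in general. The median distance to a region with a peak in all 16 lists was 18.4 kb, against 18.6 kb from the other regions with a peak in 4 lists. Chromosome 6 held the most, with 83 regions or 2.52% of its consensus regions, and chromosome 16 the lowest share, with 10 regions or 0.622%. A single region was on a contig outside the main chromosomes.

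The regions with the smallest distance to a start were those of SLC39A11 (0.018 kb), CYGB (0.041 kb), CXCL11 (0.110 kb), PKIG (0.112 kb) and DNAH7 (0.127 kb). Mean folds were modest in these 5, between 2.95 near PKIG and 4.44 near CXCL11. A κB match was present in 4 of the 5, the exception being PKIG.

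Most regions stood alone along the genome. The nearest genes numbered 805, of which 725 had 1 region, 71 had 2, 7 had 3 and 2 had 4. The median distance to the next region was 761 kb, and when regions at most 50 kb apart were joined, 810 stood alone, 36 pairs and 5 triples formed, so that 87 regions (9.70%) were in runs. The share in runs was 6.17% in regions gained in both lines with a KO peak and 12% in the lost regions. It was 14.2% in the other regions with a peak in exactly 4 lists and 92.3% in all other consensus regions. This share depends on how many regions a set holds. A triple of 41.0 kb lay downstream of CSF2, the gene of the cytokine GM-CSF, with mean folds of 3.15, 6.08 and 3.28 at 25, 55.5 and 64.0 kb. A triple of 32.5 kb lay at TLR1 and TLR10, genes of Toll-like receptors, where the region nearest TLR10 had a mean fold of 8.58 and those nearest TLR1 had 3.45 and 5.68. The other 3 triples lay near INHBA, at NINJ1 and WNK2, and at KLHL12 and CYB5R1, with mean folds of 3.62, 4.98 and 4.05 over their regions.

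The genes that were nearest to 4 regions were TNFAIP3 and INHBA. TNFAIP3 encodes A20, the ubiquitin-editing enzyme that limits NF-κB signalling. Its regions lay 186 and 169 kb upstream and 15.1 and 59.9 kb downstream of the start. The strongest, at 169 kb, had a fold of 6.23 and 4.96 in MDA-MB-231 and of 4.32 and 4.64 in Hs578T, and that at 15.1 kb held 2 κB matches and 1 AP-1 match, with folds between 2.68 and 4.05. The other TNFAIP3 regions, the strongest among them, held no κB match in their central 600 bp. Those of INHBA, which encodes the activin A subunit, lay 468 to 597 kb from its start, and 4 of 4 held a κB match. The gene list by number of nearest regions was completed by ABI3BP with 2, taken first by symbol among equals, the stronger with a mean fold of 6.89. Genes nearest to 3 regions were ATP2B1, CSF2, PTPRC, PTPRM, TBC1D4, TNS3 and TRAM1L1, for PTPRC, ATP2B1 and TRAM1L1 with all regions over 100 kb away.

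To see which pathway genes had such a region at hand, 23 lists of genes, 1 of them a comparison list of ribosomal protein genes, were searched within 100 kb of each start. Among all 19676 protein-coding genes, 1587 (8.07%) had one of the 897 regions in reach, and 7.14% had one of the 742 lost regions. Counts are described beside these shares without a test, since lists were short and neighbouring genes share regions. A region in reach can lie closer to another gene, as for CHUK, TRAF2, PLAUR, ITGA10, ITGB5, SOCS1, NFE2L2, TEAD4, SMAD4, CSF3 and ADAM9. The comparison list itself reached 4 of 20 (20%).

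Of the NF-κB subunits and kinases, 3 of 10 had a region. None had a lost region, beside 7.14% of all protein-coding genes. NFKB1, which encodes p105 and p50, held a pair within its body, the first 49.5 kb from the start with a fold of 6.35 and 7.89 in MDA-MB-231 and of 7.74 and 7.92 in Hs578T, and the second at 61.0 kb with 3.67, 3.25, 3.49 and 2.76. Each of the pair held 1 κB match. The IKBKE region lay 8.62 kb into the gene, with 4.22, 5.36, 4.34 and 3.41, and that of CHUK, which encodes the kinase IKKα of the non-canonical arm, lay 65.6 kb downstream of its start with folds between 2.94 and 3.39. Of the feedback inhibitors, 2 of 10 had one, TNFAIP3 and CYLD. The CYLD region, 2.88 kb into the gene of this deubiquitinase, had 3.38, 3.27, 3.13 and 3.52 and held 2 AP-1 matches but no κB match. Of TRAF and IAP adaptors it was 1 of 8, TRAF2 at 45.2 kb with folds of 2.69 to 3.39.

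CXC chemokine genes had the highest share of the family lists (54.5%). Of the CXC chemokines, which attract neutrophils or T cells, 6 of 11 had a region in reach, but these were 3 regions, since CXCL2, CXCL3 and CXCL5 share 1 and CXCL10 and CXCL11 share another. The region between CXCL2 and CXCL3 had a fold of 8.18 and 7.70 in MDA-MB-231 and of 7.47 and 6.06 in Hs578T, and held neither κB nor AP-1 in its central 600 bp. The region at the CXCL11 start had 5.03, 5.10, 4.01 and 3.61, and the one upstream of CXCL8 had 4.12, 3.52, 4.80 and 3.14. The lines overlapped near CXCL8, whereas the MDA-MB-231 values were the higher ones in the other pair. Of CC chemokines it was 1 of 6, CCL5, 11.8 kb upstream with 4.93 and 4.69 in MDA-MB-231 against 2.94 and 2.93 in Hs578T. No CXC or CC chemokine gene had a lost region within 100 kb, beside 7.14% of all protein-coding genes. The AP-1 factors and the EGF receptor family had none either. Lost regions were in reach of 1 of 10 feedback inhibitors, 1 of 15 inflammatory cytokines and 2 of 11 YAP and TEAD pathway genes. They were also in reach of 2 of 11 genes of epithelial-mesenchymal transition, 3 of 17 of the TNF superfamily and 4 of 20 of the comparison list.

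Of inflammatory cytokines, 4 of 15 had a region: CSF2, IL15, IL24 and CSF3. The region 75.4 kb upstream of CSF3, the gene of G-CSF, was the fifth strongest of all with 11.8, 10.4, 9.05 and 8.42, although LRRC3C is closer to it. IL15 had 3.54, 4.62, 3.96 and 4.13 at 76.4 kb upstream, and IL24 had 3.08, 2.80, 3.16 and 3.74 at 11.9 kb upstream. Of the adhesion and immune checkpoint genes it was 1 of 10, ICAM1, the ligand of leukocyte integrins, with 4.46, 4.76, 4.66 and 4.63 at 5.50 kb upstream and 1 κB match. Of interferon and STAT factors it was 1 of 13, SOCS1.

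Among the matrix and attachment lists, integrins had the highest share, with 5 of 16. The ITGAV region, 34.9 kb upstream of the gene of the integrin αV chain, had 3.20 and 3.22 in MDA-MB-231 and 4.25 and 3.66 in Hs578T. The ITGA7 region came within 2 kb of a start, with folds between 3.45 and 4.21, and those of ITGA1, ITGA10 and ITGB5 lay 97.4, 27.5 and 98.8 kb upstream. Of the matrix metalloproteinases it was 1 of 14, MMP9, with 4.60, 6.08, 4.06 and 4.78, while 4 of 14 had a lost region in reach. Of plasminogen activation and serpins it was 3 of 10, PLAUR at 99.2 kb and SERPINB1 and SERPINB9, which share 1 region with 2 κB and 2 AP-1 matches. Of ADAM and ADAMTS proteases it was 1 of 13, ADAM9, with 5.03 and 5.05 in MDA-MB-231 and 2.67 and 2.62 in Hs578T. This region lay 20.2 kb upstream of ADAM9 and is the one nearest HTRA4 named above.

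Genes of apoptosis control had regions in reach as well. BCL2A1, an anti-apoptotic NF-κB target, had a region at its start (0.195 kb upstream) with 3.79 and 3.62 in MDA-MB-231 and 5.57 and 5.52 in Hs578T, and another 23.6 kb upstream with 2.92, 4.47, 2.78 and 2.71. Neither held a κB or AP-1 match in its central 600 bp. BCL2L11, encoding the pro-apoptotic BIM, had folds between 3.40 and 4.16 at 86.7 kb.

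Among growth and transcription factor genes, the region 42.3 kb upstream of EGFR was strong, with 5.14 and 6.66 in MDA-MB-231 and 7.80 and 8.21 in Hs578T, both Hs578T values being higher. EGFR and its ligand gene AREG made 2 of 10 of their list. Of the YAP and TEAD pathway 3 of 11 had a region, WWTR1 (TAZ), TEAD1 and TEAD4. The WWTR1 region held 2 κB matches and was stronger in MDA-MB-231, with 4.75 and 4.89 against 2.74 and 3.33. Of the small MAF, NRF2 and BACH factors it was 2 of 8, NFE2L2 and BACH1, and of the TGF-beta pathway 1 of 12, SMAD4. The AP-1 factors (0 of 11), the genes of epithelial-mesenchymal transition (0 of 11) and the TNF ligand and receptor superfamily (0 of 17) had none. Of NAD metabolism it was 2 of 13. NAMPT, the rate-limiting enzyme of NAD salvage, had a region 72.3 kb upstream with 5.62, 5.92, 5.21 and 6.04, and a further one at 107 kb upstream, joined to the first as a pair, with 4.75, 5.11, 4.10 and 4.12. NADSYN1, which encodes NAD synthetase, had 4.81, 5.31, 4.30 and 4.55 at 9.77 kb into the gene. The first NAMPT region held neither element in its central 600 bp and the second held 2 AP-1 matches. The study described a TWEAK-activated super-enhancer, a cluster of enhancers, downstream of the NAMPT promoter. Whether either region here overlaps that cluster was not tested. Of the 3 dependency genes on which the study itself dwelt, NAMPT and ITGAV had a region, a list that is not independent of these samples.

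**Figure D5:**
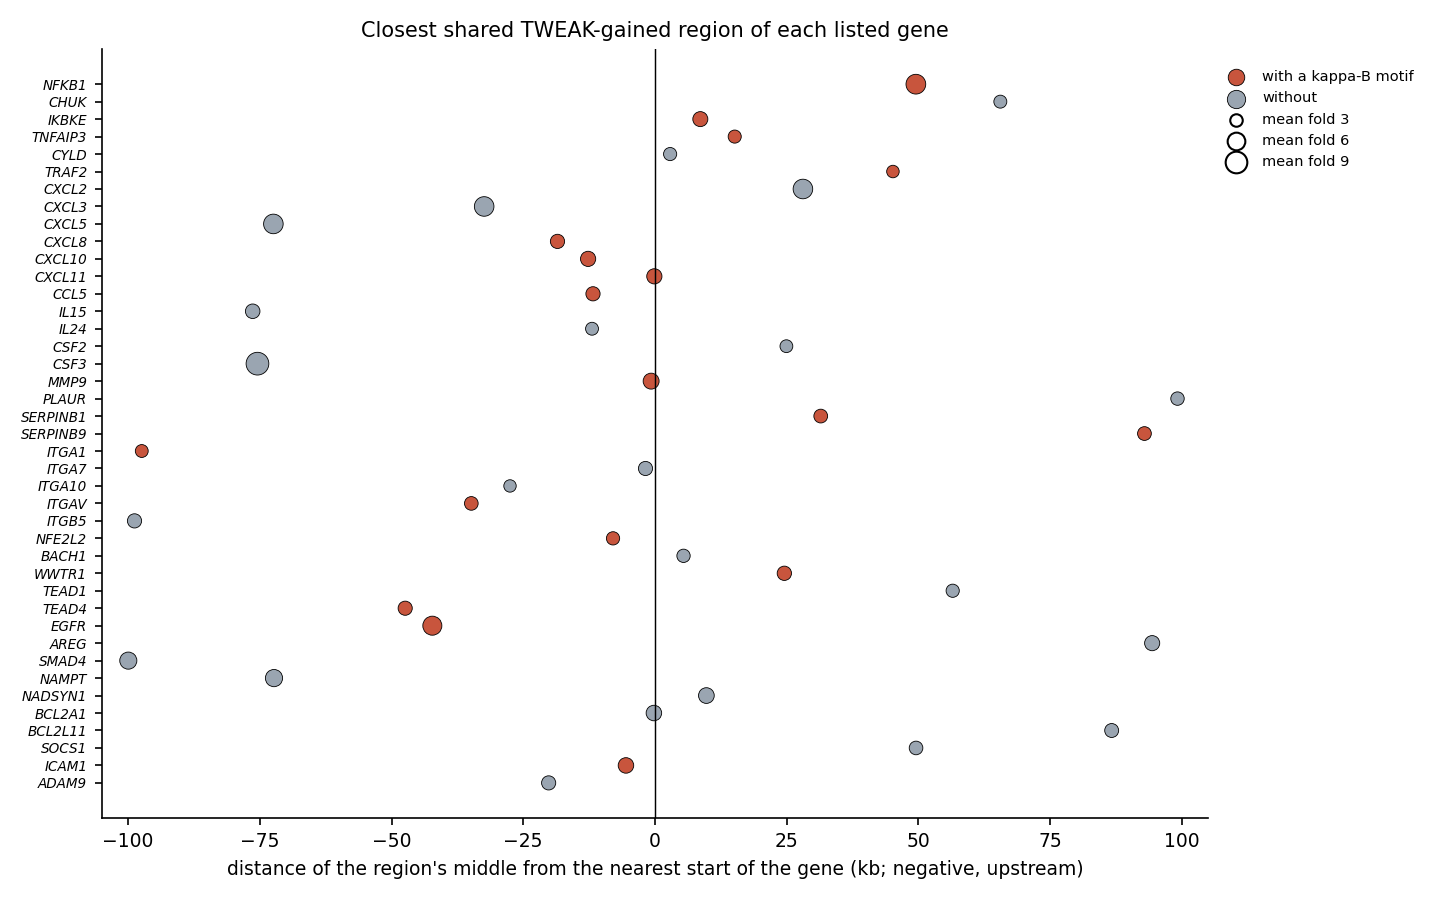
Closest of the 897 regions for the listed genes reported here with 1 within 100 kb (rows), by distance in kb of its middle from the closest start of the gene (x, negative is upstream). The point size gives the mean fold over the 4 control TWEAK lists, and red marks a κB match in the central 600 bp. Regions at the starts of CXCL11 (0.110 kb), BCL2A1 (0.195 kb) and MMP9 (0.721 kb) lie on or beside the zero line.

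The labelled cell type was checked on start peaks of marker genes. A peak at the start was found in 16 of 16 lists for 8 of 8 mesenchymal or basal B markers and for 1 of 5 leukocyte and 1 of 4 endothelial markers (CD68 and PECAM1). The luminal list was mixed. In it, 5 of 9 markers had a start peak in 16 of 16 lists (ERBB3, GATA3, EPCAM, KRT8 and KRT18). The other luminal markers were CDH1, ESR1 and PGR, with 0 lists each, and FOXA1, with 2. Peak numbers ranged from 39544 to 47197 over the lists. Sequencing depth is unknown, and a peak that was not called can still carry some acetylation.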

How the data were processed

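H3K27ac ChIP-seq of MDA-MB-231 and Hs578T cells, 16 samples in 8 groups of 2 replicates, was analysed from 1 broad peak list per sample, grouped by the labels. Reads had been mapped by the authors to hg38 with Bowtie2 and peaks called per sample with MACS2 with input subtracted, after which blacklisted regions were removed. Trimmomatic and deepTools are also named in the submitters' processing notes, and versions are not given in the sources used here. The deposited values used were the fold enrichment of a peak over background (a ratio) and its −log10 q-value, as the authors' peak caller wrote them, while the deposited −log10 p-value and the score, which is 10 times the −log10 q-value as a whole number, were not used further. Read depth is unknown, so peak number and covered length stand in for it and intervals cover counts of regions only.

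Peaks were merged, presence was tabulated per list, and regions were annotated with GENCODE 44. Motifs were searched on both strands of hg38, in 600 bp around the stretch shared by the 4 control TWEAK peaks (other sets: around the middle of the region). Scripts used Python 3.11.15, numpy 2.4.6, pandas 2.3.3, scipy 1.17.1, pysam 0.24.0, matplotlib 3.10.9 and samtools 1.23.1, and were tested on simulated data. Shares in lists that did not choose the regions were compared by exact permutation tests over lists, with Benjamini-Hochberg adjustment over the 4 tests. Named were the 10 strongest and 5 widest regions, the genes nearest to most regions, the 5 runs with most regions, the closest region within 100 kb of each listed gene, the 5 regions closest to a start and the 5 with the most AP-1 matches; further ones are marked where named. The members and lists were chosen with earlier results of these data known, and the set of other regions with a peak in exactly 4 lists was added after the files were seen. Alternatives were stricter q-values, equal peak numbers per list, minimum coverage, other windows and gene types, and leaving out each list. A listed gene is not reported here.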

Additional observations from a re-analysis of the deposited data

How the results depend on the processing

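None of the 4 comparisons of shares reversed under any alternative. The other results have no direction to reverse, and 13 of their values under alternatives moved beyond the range set around the main value. With the replicate number as a replicate block, both comparisons across lines kept their differences of 68.4 and 59.7 percentage points, but 16 arrangements allow no exact permutation p below 0.0625. Same-numbered lists did not deviate together in the presence of peaks. Correlations ran from −0.133 up to 0.0356 for the MDA-MB-231 lists, and from −0.035 up to 0.0534 for those of Hs578T. These values cannot tell whether same-numbered lists shared a culture or a batch. With labels exchanged over all 8 lists, the differences between replicates of 85.3 and 75.2 points had an exact permutation p of 0.0357. Leaving out 1 list, the differences across lines were 64 to 74 points (chosen in MDA-MB-231) and 56.6 to 70.5 (chosen in Hs578T). The exact permutation p was 0.143, the smallest possible, wherever 1 of the control TWEAK lists looked up was left out. The number of regions was 901 to 1088 without 1 list, highest without MDA-MB-231 control TWEAK replicate 1. Each of the 16 counts was above 897, which follows largely from the setting, since leaving out a list removes a condition of the rule. It was 939 with q-values of at least 2 on the −log10 scale, 849 with equal peak numbers and 1040 with peaks covering 50% of the region. The share with κB was 26.8% in 300 bp and 54.2% in 1000 bp, and with AP-1 25.3% and 53.8%. Regions near a start were 3.46% within 1 kb, 12.8% within 5 kb, 16.3% with all gene types and 6.83% with coverage of 50%. The median distance with all gene types was 10.5 kb. Regions in runs were 12.4% and 13.6% with coverage of 25% and 50%, 4.35% with a shorter joining distance and 13.9% at 100 kb. Weak peaks limit the lists, since 10.9% of all peaks lie below a −log10 q-value of 2.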
